A study of Mus musculus with 17 samples.

Results

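The 10 genes described here encode histone lysine demethylases and were measured in single 2-cell mouse embryos: Kdm1a, Kdm1b, Kdm2a, Kdm2b, Kdm3a, Kdm4a, Kdm4b, Kdm4c, Kdm5b and Riox1, the last also known as No66. They were chosen by gene symbol, with earlier results of these data known. Each of the 10 genes had 1 row (probe set) among 21780 rows with exactly 1 gene symbol, which cover 19935 genes. Kdm4c and Riox1 were picked out by the study for their expression in these embryos, so that their values are no independent evidence of a direction. It placed both among genes that also had altered histone placement in sperm of PJ34-treated males. Kdm4c was among the genes that the study also measured by quantitative PCR in embryos of both groups.

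All embryos and both parents were of the inbred strain 129SVE. The sires were wild-type males that received daily injections for 6 weeks, either of saline or of PJ34, a compound that blocks PARP1 and PARP2, enzymes of poly(ADP-ribose) synthesis, and they were then mated naturally with untreated wild-type females. Of the 17 embryos, 7 had control fathers (1 embryo of sire A and 3 each of sires B and D) and 10 had PJ34-treated fathers (4 embryos each of sires MTM11 and MTM13 and 2 of MTM14). Each embryo was hybridized to 1 array, and only the sire was treated. The labels of the control sires say both saline treated and untreated, and the design text describes saline. The labels do not give the sex of an embryo, and embryos of 1 sire share a father, so that p-values over embryos do not measure the spread between males.

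Lysine demethylases remove methyl groups from histone tails. Kdm1a and Kdm1b are flavin-dependent amine oxidases that act on H3K4 methylation, whereas all the other enzymes here hold a Jumonji C domain and need iron and 2-oxoglutarate. In the early mouse embryo, histones of both parental genomes are remodelled while the genome becomes active, and much of the transcript pool is still inherited from the oocyte. A lower signal from a whole embryo can stand for less transcript made or for less inherited transcript remaining, and these cannot be told apart here.

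As list means, markers of the labelled tissue lay above markers of cells around the embryo. Oocyte-inherited markers had a mean log2 signal of 9.84 ± 0.08 (SD, n = 10) in PJ34 and 9.87 ± 0.14 (SD, n = 7) in control embryos, and genome activation markers 8.66 ± 0.26 and 8.75 ± 0.13. Of 21 genome activation genes listed, 13 had a row with exactly 1 gene symbol. Zscan4c, Zscan4d, Zscan4f and Duxf3 were among those without one. Cumulus cell markers stood at 5.54 ± 0.08 and 5.53 ± 0.06, and oviduct and blood markers at 5.70 ± 0.10 and 5.66 ± 0.06. Both list means were below the median row of the arrays at 6.25. The only rows of these lists with a mean above it were Amhr2 (7.31) of the cumulus list and Slc4a1 (6.72) and Pax8 (6.69) of the other. Ovgp1 and the haemoglobin genes listed had no row with exactly 1 gene symbol. The median correlation of an embryo with the others ranged from 0.947 (MTM13-4) to 0.957. Embryo MTM13-4 also had the lowest mean of the genome activation markers, 8.18, where the other 16 embryos ranged from 8.42 to 9.02.

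For the 2 genes whose values the comparisons below turn on, Kdm4c for the difference between groups and Riox1 for the spread between embryos, the 250 bases upstream of each annotated start are shown as RefSeq gives them (GRCm38.p6, 5′ to 3′ on the gene's strand, with every CG in capitals). CG reads the same on both strands.
Kdm4c, first start, chr4:74242247-74242496 (+): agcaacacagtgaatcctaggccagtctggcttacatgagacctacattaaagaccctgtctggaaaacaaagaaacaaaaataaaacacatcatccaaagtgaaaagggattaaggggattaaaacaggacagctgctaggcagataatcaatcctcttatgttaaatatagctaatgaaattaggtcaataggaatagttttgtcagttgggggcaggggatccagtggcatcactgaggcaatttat
Kdm4c, second start, chr4:74251629-74251878 (+): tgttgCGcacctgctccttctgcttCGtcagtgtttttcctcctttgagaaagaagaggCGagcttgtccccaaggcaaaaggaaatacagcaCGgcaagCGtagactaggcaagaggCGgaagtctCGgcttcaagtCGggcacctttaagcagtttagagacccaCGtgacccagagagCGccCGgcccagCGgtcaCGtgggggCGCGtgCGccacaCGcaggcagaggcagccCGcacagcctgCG
Riox1, chr12:83950358-83950607 (+): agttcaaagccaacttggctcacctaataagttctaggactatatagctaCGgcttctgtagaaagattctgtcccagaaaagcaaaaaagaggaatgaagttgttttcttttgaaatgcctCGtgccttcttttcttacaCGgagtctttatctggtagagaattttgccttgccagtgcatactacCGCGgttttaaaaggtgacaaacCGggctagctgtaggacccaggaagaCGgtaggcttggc

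The first Kdm4c window held 0 CG and the second 19, and the Riox1 window held 7, against a median of 6 over 32851 such windows of all genes, of which 92.1% held at least 1. Windows were found for 8 of the 10 genes, 14 in all, and 12 of the 14 lay above the median CG count, as did 46.3% of all windows. The other window without a CG belonged to 1 of the 3 starts of Kdm3a. The highest count was 38, in a window of Kdm2b. No window was found for Kdm2a and Kdm4b. The arrays do not tell which start was in use.

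The 10 genes covered a wide range of array signal. Kdm5b, which removes methyl groups from H3K4, was the brightest at a log2 intensity of 11.52 ± 0.11 (SD, n = 17) and stood at percentile 98.0 of all rows. Riox1, a Jumonji oxygenase of the nucleolus, followed at 10.86 ± 0.64 (percentile 95.9), and the H3K9 and H3K36 demethylase Kdm4c at 9.27 ± 0.62 (percentile 88.8). Kdm4a (8.84 ± 0.53), Kdm2a (8.64 ± 0.34), Kdm1a (8.51 ± 0.49), Kdm2b (8.12 ± 0.38) and Kdm3a (7.85 ± 0.39) formed the middle of the order. The lowest were Kdm1b at 6.87 ± 0.37 (percentile 66.2) and Kdm4b at 6.50 ± 0.13 (percentile 57.2), the latter close to the median row. Both lay below the cumulus marker Amhr2 (7.31), and Kdm4b also below Slc4a1 (6.72) and Pax8 (6.69), markers of oviduct and blood. Whether the signal of Kdm1b and Kdm4b stood above background was not tested.

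Neighbours in this order were often closer than their spread. The gap between Riox1 and Kdm4c, 1.59 ± 0.83 (SD of the gap, n = 17), had the same sign in all 17 embryos, and that between Kdm3a and Kdm1b, 0.99 ± 0.67, in 16 of 17. Kdm5b exceeded Riox1 in 16 of 17 embryos. By contrast, Kdm2a exceeded Kdm1a in only 10 of 17 embryos (gap 0.13 ± 0.72), and the order of Kdm4a, Kdm2a, Kdm1a, Kdm2b and Kdm3a turned in 6 or 7 embryos at each step. Signal depends on the probes of each row, so this is an order of array intensity and not of transcript amounts.

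**Figure D1:**
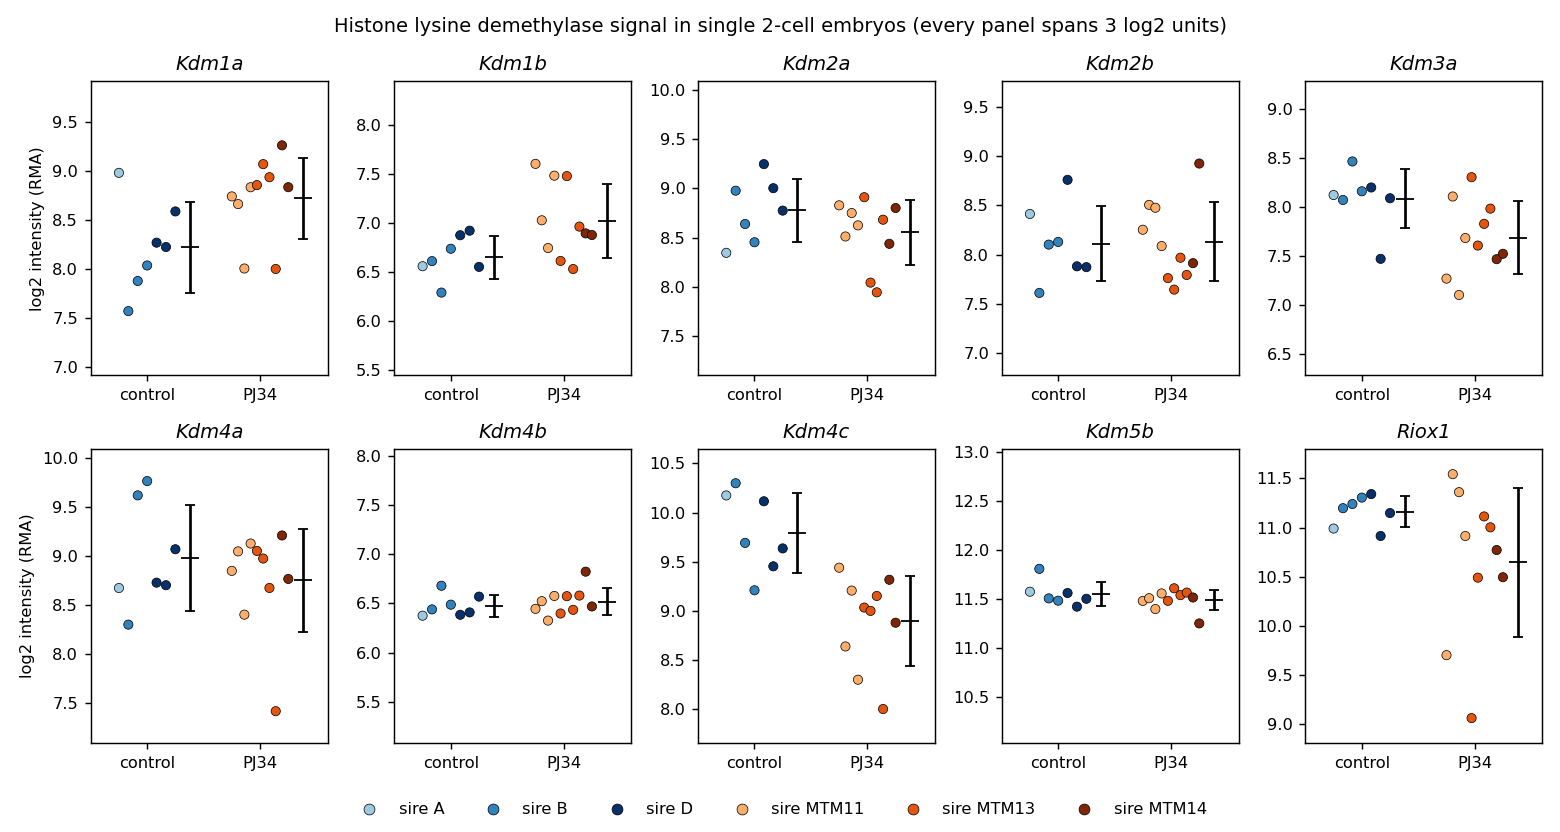
Log2 intensity (y axis) of each of the 10 demethylase genes in 7 control and 10 PJ34 embryos, 1 point per embryo, coloured by sire, with bars for the mean ± SD of each group; every panel spans 3 log2 units. For Kdm4c, each of the 10 PJ34 points is under the control mean of 9.80, and 2 PJ34 embryos lie far below all others for Riox1.

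The main comparison asked whether demethylase transcripts differed between embryos of PJ34-treated and control sires. By limma with Benjamini-Hochberg adjustment over all 21780 rows, 0 of the 10 genes and 0 rows in all (0%) passed an adjusted p of 0.1, the threshold the study used. At an unadjusted p below 0.05, Kdm4c and Kdm3a had lower means in PJ34 embryos and Kdm1a and Kdm1b higher ones, 2 of 10 in each direction, where 3.93% of all rows were lower and 1.96% higher. The median difference of the 10 genes was -0.14 and 6 of 10 were negative, against a median of -0.02 and 56.4% negative over all rows. The methods' analysis of variance per row called 0 rows as well, with an adjusted p of 0.673 for Kdm4c.

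Kdm4c encodes a Jumonji enzyme that acts on methylated H3K9 and H3K36. Its row ranged in control embryos from 9.21 (B-3) over a median of 9.69 to 10.30 (B-1), and in PJ34 embryos from 7.998 (MTM13-4) over a median of 9.01 to 9.44 (MTM11-1). The control mean exceeded each of the 10 PJ34 values, and 1-sided placement of this kind, in either direction, was found for 3.36% of all rows. Of the 10, 8 lay below the lowest control embryo and 6 of the 7 control embryos above the highest PJ34 embryo, but the ranges overlapped (0.0138% of all rows had ranges that did not). The mean was 8.89 ± 0.46 (SD, n = 10) in PJ34 and 9.80 ± 0.41 (SD, n = 7) in control embryos, a log2 difference of -0.90 (95% interval -1.34 to -0.47), or 1.87-fold lower. This was the 12th lowest p of all rows (unadjusted p = 0.000425), with an adjusted p of 0.617 by limma.

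The value of Kdm4c did not rest on 1 embryo: leaving out each embryo in turn gave differences from -0.9998 (without B-3) to -0.80 (without MTM13-4). With the means of the 6 sires as samples the difference was -0.95 (adjusted p = 0.501 by limma), and with sire as a random block it was -0.90 (adjusted p = 0.426 by limma). The sire correlation in the fit with blocks was negative (-0.038), so that fit was no stricter than the one without blocks. The 3 PJ34 sire means of 8.89, 8.79 and 9.10 all lay below the 3 control sire means of 10.17, 9.73 and 9.73. The value of 10.17, of sire A, is from 1 embryo. The share of all rows with sire means separated in this way was not counted. Among the genome activation markers, 4 of 16 rows were also lower at an unadjusted p below 0.05 and 0 were higher. Over all rows, 3.93% were lower and 1.96% higher. The lower marker rows included Nop56 at -0.59 and Usp17lb at -1.11. The others were 1 of the 2 rows of Dppa4 at -0.60 (the other at -0.15) and 1 of the 2 rows of Dppa2 at -0.21 (the other at -0.14). The list as a whole had a median difference of -0.05, with 9 of 16 rows negative, against 56.4% of all rows. Its mean ranged between 8.58 and 8.97 in control and between 8.18 and 9.02 in PJ34 embryos. The part of these markers in the Kdm4c value was not tested.

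Kdm3a removes methyl groups from mono- and dimethylated H3K9 and is known for its part in spermatogenesis. In control embryos it ranged from 7.47 (D-2) over 8.12 to 8.47 (B-2), and in PJ34 embryos from 7.11 (MTM11-3) over 7.65 to 8.31 (MTM13-1). The ranges overlapped, since the lowest control embryo lay at the level of several PJ34 embryos and 8 of 10 PJ34 embryos lay below the control mean. The difference was -0.39 (95% interval -0.74 to -0.05, unadjusted p = 0.0276, adjusted p = 0.843 by limma), and it was -0.50 without control embryo D-2.

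Kdm1a, the catalytic subunit of CoREST complexes, had the largest difference in the other direction. Control embryos ranged from 7.57 (B-1) over 8.22 to 8.98 (A-2), and PJ34 embryos from 7.999 (MTM13-4) over 8.83 to 9.26 (MTM14-1). Of the 10 PJ34 embryos, 8 lay above the control mean and 2 above the highest control embryo. The difference was 0.50 (95% interval 0.07 to 0.93, unadjusted p = 0.0257, adjusted p = 0.843 by limma). With the means of the 6 sires as samples it was 0.38 (unadjusted p = 0.255, by limma), so that the unadjusted call was lost. It was 0.20 without the 3 embryos of control sire B, which were the 3 lowest of the control embryos at 7.57, 7.88 and 8.03.

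Kdm1b, the second amine oxidase, is known for setting maternal imprints in the oocyte. Control embryos ranged from 6.29 (B-2) over 6.61 to 6.92 (D-2), and PJ34 embryos from 6.53 (MTM13-3) over 6.93 to 7.60 (MTM11-1). Of the 10 PJ34 embryos, 5 lay above the highest control embryo, and MTM11-1, MTM11-4 and MTM13-2 stood apart at 7.60, 7.48 and 7.48. The difference was 0.37 (95% interval 0.05 to 0.69, unadjusted p = 0.0265, adjusted p = 0.843 by limma). Without control embryo B-2, or without all of sire B, only Kdm4c of the 10 genes remained at an unadjusted p below 0.05.

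Riox1 had 10.64 ± 0.76 (SD, n = 10) in PJ34 and 11.16 ± 0.16 (SD, n = 7) in control embryos. Control embryos ranged from 10.91 (D-2) over 11.20 to 11.34 (D-1), whereas PJ34 embryos ranged from 9.06 (MTM13-1) over 10.84 to 11.54 (MTM11-2). Of the PJ34 embryos, 6 lay below and 2 above all control embryos, and 8 of 10 lay below the control mean. The difference of -0.52 (95% interval -1.11 to 0.07, unadjusted p = 0.0820, adjusted p = 0.866 by limma) was -0.34 without MTM13-1. With the means of the 6 sires as samples it was -0.48, at an unadjusted p of 0.0133 and an adjusted p of 0.864 by limma. Without both MTM13-1 and MTM11-1, an alternative chosen after seeing the data, it was -0.20 (unadjusted p = 0.194 by limma).

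The other 5 genes had intervals that included 0. Kdm2a, a CpG island protein that acts on H3K36, differed by -0.22 (95% interval -0.55 to 0.10), with 2 PJ34 embryos of sire MTM13 at 8.04 and 7.94 below all others. It differed by -0.15 without control embryo D-1, by -0.05 without sire D and by -0.12 with sire means as samples. Its relative Kdm2b, which links CpG islands to a Polycomb complex, differed by 0.02 (-0.37 to 0.42). Kdm4a differed by -0.23 (-0.75 to 0.30), and by -0.08 without MTM13-4, whose value of 7.42 was the lowest of all 17 embryos. Kdm4b differed by 0.04 (-0.10 to 0.18) and Kdm5b by -0.06 (-0.18 to 0.06). These last intervals were the narrowest of the 10 genes, with values over all 17 embryos from 6.33 to 6.82 for Kdm4b and from 11.25 to 11.81 for Kdm5b. For Kdm4b, a dim row, the part of background signal in its narrow range was not tested.

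**Figure D2:**
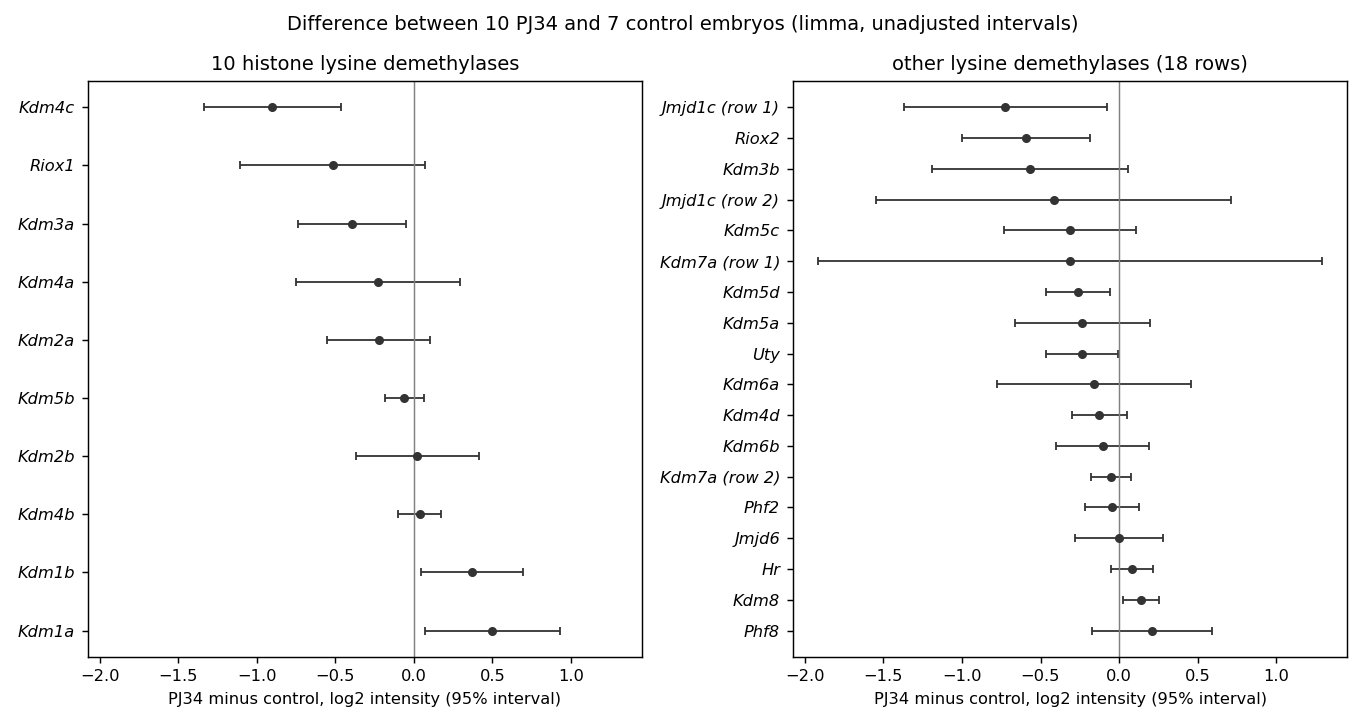
Log2 difference of the group means, PJ34 minus control (x axis), with its 95% interval by limma, for the 10 genes (left) and for 18 rows of 16 other lysine demethylase genes (right). The interval of Kdm4c, from -1.34 to -0.47, lies farthest from 0, and no row passed the adjusted threshold.

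Embryos by father were compared next, because each male's offspring could differ. Over the 3 PJ34 sires, 0 of the 10 genes passed the F test of limma at an adjusted p of 0.1 (0.00918% of all rows did) and 0 at an unadjusted p below 0.05 (4.8% of all rows). The lowest was Kdm2b (unadjusted p = 0.0602), with family means of 8.33 ± 0.20 (SD, n = 4) in MTM11, 7.79 ± 0.13 (SD, n = 4) in MTM13 and 8.42 ± 0.72 (SD, n = 2) in MTM14, values on a log2 scale. For Kdm4c the same test gave p = 0.751, with 8.89 ± 0.52, 8.79 ± 0.53 and 9.10 ± 0.31 in families of 4, 4 and 2 embryos, by limma. Over the 3 control sires, 0 of 10 passed after adjustment (0.271% of all rows), and 1, Kdm1a, had an unadjusted p below 0.05 (0.0278, against 5.71% of all rows).

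Set against the 7 control embryos, which the 3 families share, no family had a gene of the 10 past the adjusted threshold (0.00459%, 0% and 0.0551% of all rows for MTM11, MTM13 and MTM14). At an unadjusted p below 0.05 there were 3 of 10 in MTM11 (5.25% of all rows), namely Kdm4c at -0.90, Kdm3a at -0.54 and Kdm1b at 0.56. In MTM13 there was 1 of 10 (4.96% of all rows), Kdm4c at -1.002. In MTM14, with 2 embryos, there were 2 of 10 (5.53% of all rows), Kdm1a at 0.83 and Kdm3a at -0.59, and Kdm4c stood at -0.70 (unadjusted p = 0.0641 by limma). Without MTM13-4, 4 of the 10 genes had an unadjusted p below 0.05 in what was left of the MTM13 family.

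For the spread between embryos, the gene of the 10 with the largest ratio between the groups was Riox1. Its SD was 0.761 in PJ34 and 0.159 in control embryos, a ratio of 4.795 (unadjusted p = 0.0210, adjusted p = 0.509, limma on absolute deviations). None of the 10 genes passed after adjustment (0.0275% of all rows). At an unadjusted p below 0.05 there was 1 of 10, close to the share of all rows (8.69%). The ratio of the SDs, PJ34 over control, was 1.75 for Kdm1b and between 0.823 and 1.25 for the remaining 8 genes. Without MTM11-1 and MTM13-1 the SD of Riox1 in PJ34 embryos was 0.379 (unadjusted p = 0.0586 by limma).

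Within the groups, spread did not follow brightness alone. Kdm5b had a residual SD of 0.111, at percentile 6.47 of the rows in its decile of the signal, whereas Riox1, in the same decile, had 0.598 and stood at percentile 87.5. In control embryos alone the SD was 0.159 for Riox1 and 0.124 for Kdm5b. Of the 5 genes in the decile below, Kdm4a (percentile 51.8) lay near the middle, and Kdm4c, Kdm1a, Kdm2b and Kdm2a lay at percentiles 37.2, 36.3, 30.3 and 17.998. Kdm4b, with an SD of 0.128, stood at percentile 20.7 of its own decile and Kdm1b at 67.9.

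**Figure D3:**
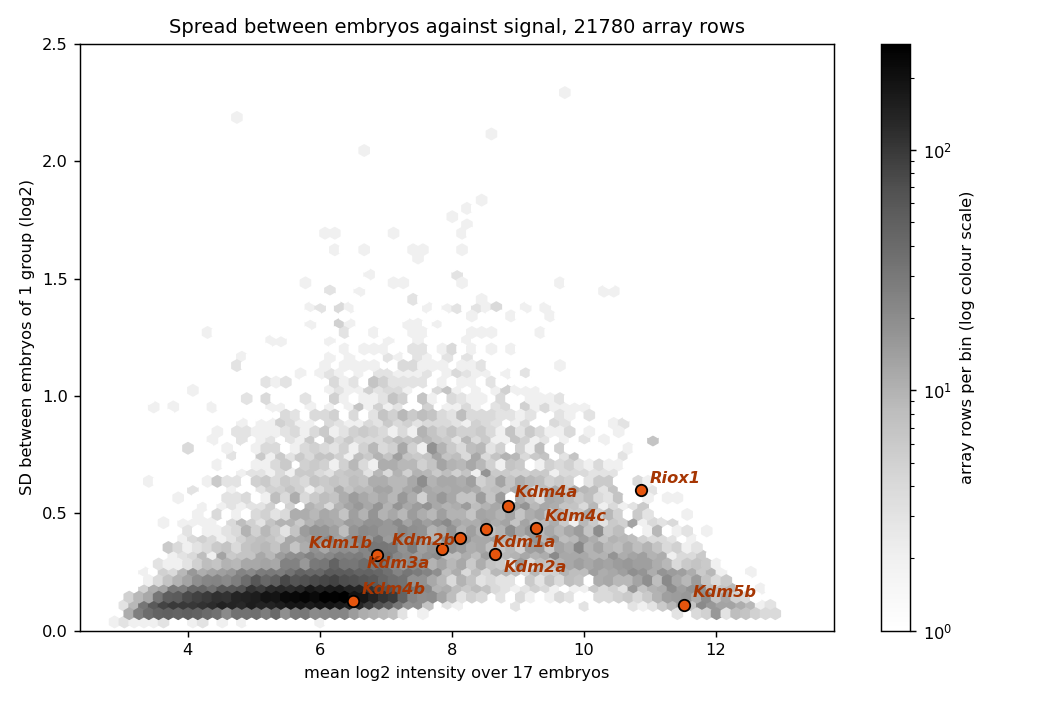
SD between embryos of 1 group (y axis, log2) against mean log2 intensity (x axis) for 21780 array rows in grey bins and the 10 demethylase genes as orange points. At high signal, Riox1 (SD 0.598, percentile 87.5 of its decile) lies in the upper part of the spread and Kdm5b (SD 0.111, percentile 6.47) in the lower part.

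Single embryos were then set against the 7 control embryos, as the study did, with the spread of the control embryos as the error. Of 100 comparisons of a gene in a PJ34 embryo, 2 passed an adjusted p of 0.1 by limma, where 0.581% of all such comparisons over all rows did. Both were of Riox1, at -2.10 in MTM13-1 (adjusted p = 0.00153) and at -1.46 in MTM11-1 (adjusted p = 0.00940). These were also the 2 PJ34 embryos with the most rows called, 200 and 189 against 63 to 135 in the other 8. Of 70 comparisons of a control embryo with the other 6, 0 passed (0.397% over all rows).

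The next lowest were Kdm4c in MTM13-4 at -1.80 (adjusted p = 0.168) and Kdm1b in MTM11-1 at 0.95 (adjusted p = 0.194), by limma. With the residual spread of all embryos as the error, Riox1 in MTM13-1 (adjusted p = 0.0348) and Kdm4c in MTM13-4 (adjusted p = 0.0487) passed and Riox1 in MTM11-1 did not. Without control embryo D-2, whose Kdm3a value of 7.47 was the lowest of the controls, Kdm3a also passed in MTM11-1 and MTM11-3, at -0.91 and -1.08.

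The low values of different genes fell in different embryos. Of the PJ34 embryos, MTM13-4 had the lowest Kdm1a, Kdm4a and Kdm4c, MTM13-3 the lowest Kdm1b and Kdm2a, and MTM11-3 the lowest Kdm3a and Kdm4b, whereas Riox1 was lowest in MTM13-1. MTM11-1, with Riox1 at 9.70, had the highest Kdm1b and Kdm4c of the PJ34 embryos. In PJ34 embryos between 3 (MTM11-2) and 9 (MTM13-3) of the 10 genes lay below the control mean, and in control embryos between 2 (D-1) and 7 (D-2).

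**Figure D4:**
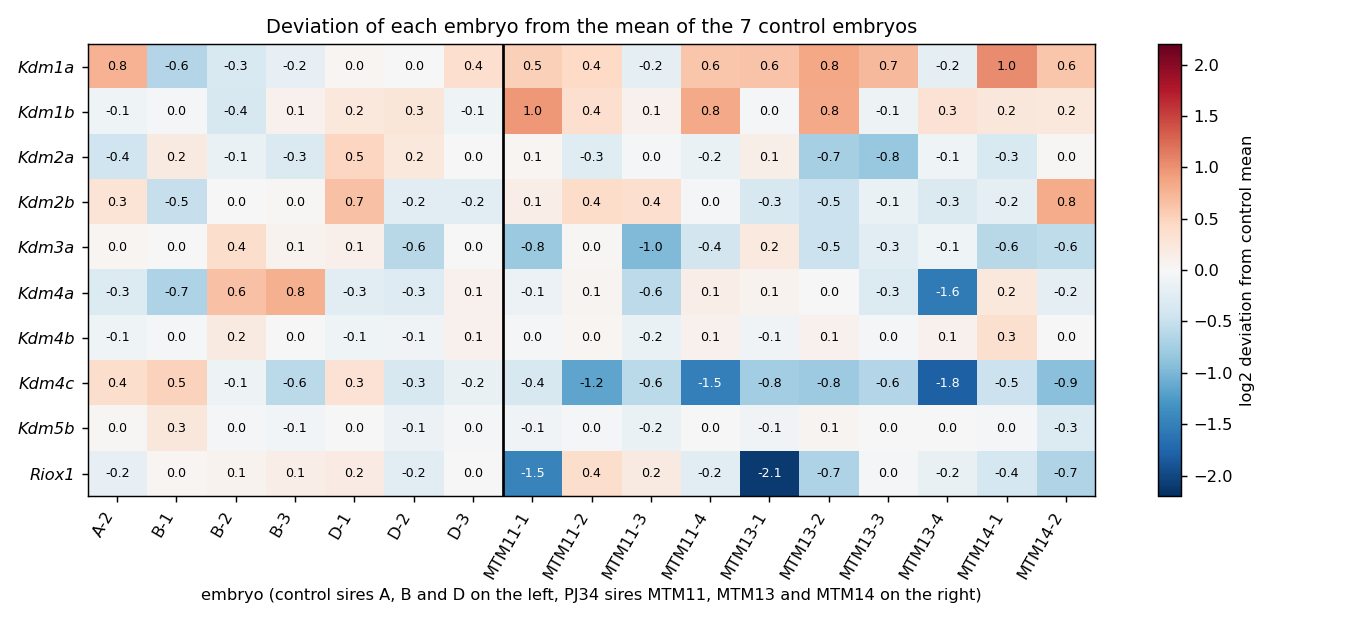
Log2 deviation of each embryo (columns) from the mean of the 7 control embryos for each gene (rows), control embryos left of the line and PJ34 embryos right of it. Kdm4c is blue in all 10 PJ34 embryos, and Riox1 reaches -2.10 in MTM13-1 and -1.46 in MTM11-1.

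Co-variation between the genes was described over the 17 embryos with the group means removed. Of 45 pairs, 0 passed an adjusted p of 0.1 by permutation, with Pearson's r or with Spearman's rho, and 1 had an unadjusted p below 0.05 with either. The median r was 0.01, and 25 of 45 were above 0. The strongest was Kdm2b with Kdm5b (r = -0.587, permutation p = 0.0168, adjusted p = 0.758, rho = -0.512, permutation p = 0.0385, adjusted p = 0.844). It was -0.492 without the 2 embryos farthest from the median of Kdm2b and -0.394 without MTM14-2, which had the highest Kdm2b (8.93) and the lowest Kdm5b (11.25) of all embryos. Within groups it was -0.844 in PJ34 and -0.262 in control embryos, a difference that was not tested.

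Kdm1a and Kdm4a gave r = 0.421 (permutation p = 0.103, adjusted p = 0.898, rho = 0.240, permutation p = 0.372), with 0.811 in PJ34 and -0.091 in control embryos. Without MTM13-4, in which both were low, r was 0.172; this value and that without MTM14-2 above were chosen after seeing the data. With the mean of each sire removed in place of the group mean it was 0.873 (permutation p = 0.00118, adjusted p = 0.0531), and this was the only one of the 45 pairs that passed in that setting. Kdm1b with Kdm3a gave r = -0.404 (permutation p = 0.140, rho = -0.348, permutation p = 0.202) and Kdm1a with Kdm2a r = -0.396 (permutation p = 0.128, rho = -0.292, permutation p = 0.271), with an adjusted p of 0.898 for both r. For the rho of these 3 pairs the adjusted p was 0.844. Without the 2 embryos farthest from the median of the first gene, these 3 pairs gave 0.462, -0.318 and -0.417.

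**Figure D5:**
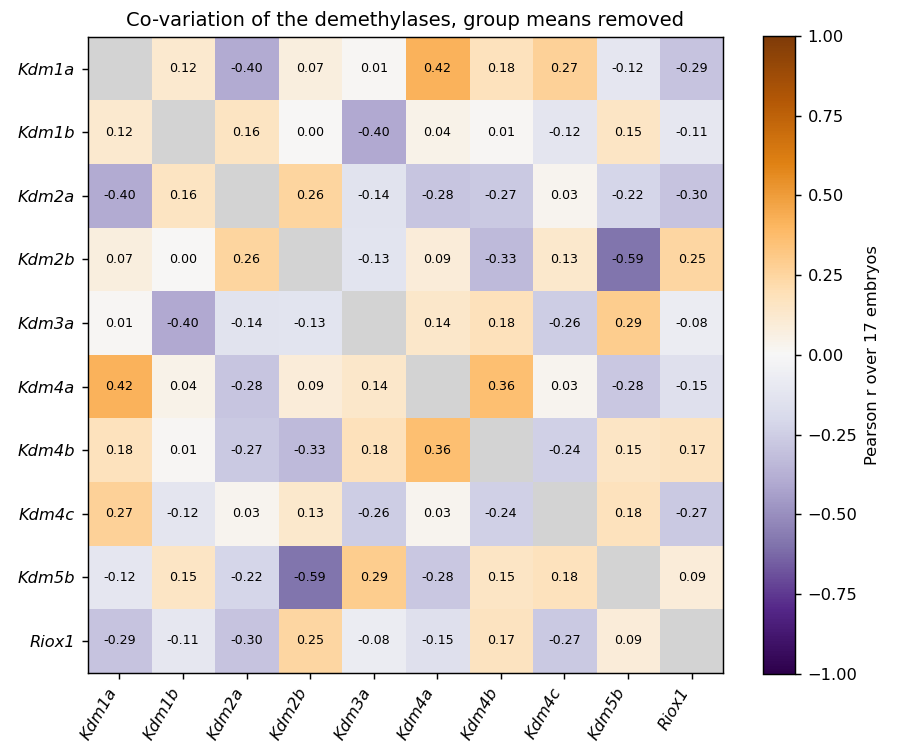
Pearson r of group-centred log2 intensity over 17 embryos for each pair of the 10 genes (axes), with the value in each cell and the diagonal in grey. Values run from -0.59 (Kdm2b with Kdm5b) to 0.42 (Kdm1a with Kdm4a), with 25 of 45 above 0.

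The row most like each gene over the 17 embryos, by the highest Pearson r of group-centred values, was sought outside the genes described here. Their own rows could therefore not be found, and pairs among them reached at most r = 0.42. None of the rows found was of another lysine demethylase. The r values of the rows found are a description, as each is the highest of all rows searched. They were 0.89 for Kdm2b with Bicc1, 0.87 for Riox1 with Tesmin, 0.86 for Kdm1b with Map3k7cl and for Kdm4b with Il6, 0.85 for Kdm4c with Trappc3l and for Kdm5b with 4932414N04Rik. The others were 0.83 for Kdm1a with Tshz2 and for Kdm3a with Zfp952, 0.80 for Kdm4a with Tpt1 and 0.77 for Kdm2a with Kansl1l. The rows of Il6, Zfp952 and 4932414N04Rik were dim, at percentiles 0.354, 5.14 and 8.31 of all rows.

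Other lysine demethylases were represented by 18 rows of 16 genes. None passed after adjustment, 4 rows were lower and 1 higher at an unadjusted p below 0.05, and 15 of 18 differences were negative with a median of -0.20. Over all rows, 3.93% were lower and 1.96% higher, 56.4% were negative and the median was -0.02. Riox2, the paralog of Riox1, had 9.27 ± 0.46 (SD, n = 10) in PJ34 and 9.86 ± 0.31 (SD, n = 7) in control embryos, a difference of -0.59 with 9 of 10 PJ34 embryos below the control mean (unadjusted p = 0.00688, adjusted p = 0.814 by limma). Of the 2 rows of Jmjd1c, 1 differed by -0.72, with each PJ34 value below the mean of the controls, and by -0.43 without control embryo A-2, while the other differed by -0.42 (unadjusted p = 0.448 by limma). The Y-linked Kdm5d differed by -0.26. The rows of Kdm5d and of the Y-linked Uty, which was the fourth lower row, were dim (percentiles 19.7 and 8.64). Kdm8 differed by 0.14. The count of lower rows, taken again without each embryo after the data were seen, was 2 without control embryo A-2, MTM11-1 or MTM13-3.

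For enzymes that add the marks, the shares over all rows were again 3.93% lower and 1.96% higher. Of 14 rows of H3K4 methyltransferases, 2 were higher at an unadjusted p below 0.05, Kmt2b at 0.34 and 1 of the 2 rows of Setd1b at 0.52 (the other at 0.05), and 0 were lower. Of 10 rows of H3K9 methyltransferases, 2 were lower, Setdb2 at -0.82 and Setdb1 at -0.41, and 1 of the 2 rows of Mecom was higher at 0.49. The study also named Setdb2 for its expression in these embryos, so that its value is no independent evidence. Of 9 rows of H3K36 methyltransferases, 0 were called in either direction. None of these passed after adjustment by limma. The median differences of the 3 lists were 0.06, -0.07 and -0.06, against -0.02 over all rows.

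Partners of the demethylases gave 1 row at this threshold, where 3.93% of all rows were lower and 1.96% higher. Of 14 rows for Kdm1a complex partners, 1 was lower at an unadjusted p below 0.05, the dim row of Rcor3 at -0.14, while Rcor1, the scaffold of the CoREST complex, differed by 0.05 and the deacetylase gene Hdac1 by 0.18 and 0.14 in its 2 rows. Of 10 rows for Kdm2b complex partners and 9 rows for the supply of 2-oxoglutarate, the cosubstrate of the Jumonji enzymes, 0 were called in either direction. The lowest p of these were of the corepressor Bcor (0.30, unadjusted p = 0.0523) and of Glud1, which makes 2-oxoglutarate from glutamate (0.51, unadjusted p = 0.0769), by limma.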

How the data were processed

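Single 2-cell embryos were profiled by the authors after whole-transcriptome amplification, with 1 Affymetrix Mouse Gene ST array (first generation) for each embryo. The deposited values are log2 intensities that the authors made with RMA (background correction, quantile normalization and summarization of probes) in Partek Genomics Suite. Neither versions nor a genome build for the probe sets are named in the sources used. Quantile normalization gives all arrays nearly 1 distribution, so only changes relative to the other transcripts of an embryo can be seen. For arrays, the number of embryos limits the precision, and the median standard error of a group difference was 0.09 (log2).

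Of 28815 rows, 21780 had exactly 1 gene symbol in the platform annotation, 1605 had several and 5430 none. Symbols of 21689 rows were matched by gene ID to RefSeq (GRCm38.p6). Groups and sires were taken from the titles. Values were tested as deposited with limma 3.58.1 (lmFit and eBayes, two-sided) in R 4.3.3, with Benjamini-Hochberg adjustment over all 21780 rows and a threshold of 0.1, which the study used in an analysis of variance. F tests over sires, families against control, single embryos, and spread (absolute deviations from the group mean) were fitted likewise. Pairs of genes were tested with 100000 permutations within groups (NumPy 2.4.6), two-sided. Sire as a random block used statmod 1.5.0. The fits of groups, sires, families and spread and the test of pairs were tested on simulated data with known changes.

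The genes and the gene lists were chosen with earlier results of these data known. Named in the text were all 10 genes and at most 4 rows per other list of histone methylation by the lowest unadjusted p. Also named were the 4 pairs with the largest absolute r, and for each gene the row most like it outside the 10 genes. Rcor1, Hdac1, Uty, Mos and the markers of genome activation were named after their values were seen. Alternatives were sires as blocks or means, array centring, filters on rows, and leaving out each embryo and each sire.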

Additional observations from a re-analysis of the deposited data

Results flagged for a closer look

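In 5 of 40 groups of embryos tested over the 10 genes, the highest or lowest embryo lay farther from the rest than Dixon's test allows at the 95% level. Chance flags about 1 in 20 groups, and the groups overlap, since the embryos of a sire are also part of their treatment group. Kdm3a was 7.47 in control embryo D-2, below the other 6 control embryos. Kdm5b was 11.81 in control embryo B-1, above the other 6. Kdm4a was 7.42 in PJ34 embryo MTM13-4, below the other 9 PJ34 embryos. Kdm4b was 6.82 in PJ34 embryo MTM14-1, above the other 9. Kdm4c was 7.998 in MTM13-4, below the other 3 embryos of its sire. Riox1 was not singled out in this way in PJ34 embryos, where both MTM13-1 (9.06) and MTM11-1 (9.70) were low.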

How the results depend on the processing

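Over all alternatives run, none of the 10 genes passed an adjusted p of 0.1 in the comparison of PJ34 with control, and 9 kept their sign. Kdm2b (0.02) ranged from -0.065 to 0.13 without single embryos, being -0.06 without B-1, -0.02 without D-2, D-3, MTM11-2 or MTM11-3 and -0.065 without MTM14-2, and was -0.099, -0.11 and -0.049 without sires B, MTM11 and MTM14 but 0.25 without sire MTM13. Kdm4b (0.04) was 0.0027 without MTM14-1 and Kdm5b (-0.06) -0.018 without B-1. Kdm4c ranged from -0.9998 to -0.80 (adjusted p from 0.426 to 0.916). Rows called in the comparison (0) were 2 with sire as a block (sire correlation -0.038), 0 with sire means, 2 among rows above the median, 1 with gene means, 2 without sire A, 1 without sire MTM14, and 0 to 2 without single embryos. Genes of the 10 at an unadjusted p below 0.05 (4) were 1 to 5 without single embryos, 1 without sire B and 2 without sire MTM14. Without sire MTM11 Kdm1b (0.24) and Kdm3a (-0.30) left this count and Riox1 (-0.67) entered, and with sire means Riox1 took the place of Kdm1a. The other histone methylation genes (11) gave 7 to 12.

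Rows that differed between PJ34 sires (2) were 1 with centred arrays, 1 above the median, 4 over all rows of the table and 0 to 96 without single embryos (96 without MTM14-2, 51 without MTM14-1). Those between control sires (59) were 10 above the median and 47 to 64. Without single embryos, MTM11 (1) gave 0 to 1, MTM13 (0) 0 to 3, and 1 over all rows of the table, and MTM14 (12) 2 to 149. For spread (6) the counts were 37 with centred arrays, 2 above the median and 7 to 42. Of the 10 genes, counts without single embryos were 0 to 1 for PJ34 sires, 0 to 1 for control sires, 1 to 4 for MTM13, 1 to 3 for MTM14, 0 to 2 for spread and 2 to 4 for single embryos. Of the pairs (0), 1 passed with sire means removed. The cause of these shifts was not tested. Where MTM14 kept 1 embryo, it was assumed to vary like the others. No paired analysis was possible because the groups share no replicate numbers.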
